A study of Mus musculus with 12 samples.

Results

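The genes described here are those of the integrated stress response that act through the transcription factor ATF4, together with the cytosolic aminoacyl-tRNA synthetases, called tRNA ligases below. The list names 36 genes, of which 34 were measured, 23 of the ATF4 pathway and 11 ligases, among 19938 genes in all. They were followed across mouse NIH3T3 cells, an immortalised fibroblast line, in which UBF was knocked down. UBF, encoded by Ubtf, is the nucleolar transcription factor of the ribosomal RNA genes. The 4 groups hold 3 arrays each. Mock cells received the Dharmafect 2 reagent with no siRNA. The control siRNA was sirEGFP, and sirUBF oligo #1 and oligo #2 (oligo 1 and oligo 2 below) are independent siRNAs against UBF. Each siRNA was given at 40 nM, the cells grew in DMEM with fetal bovine serum, and RNA was taken 48 h after transfection. The series' design text calls the arrays biological replicates. They come from 1 cell line, and the labels do not say how the cultures were separated, so the p-values measure the spread between these arrays. Values are log2 expression values, differences are log2 differences of group means, and errors are limma's moderated standard errors (SE). A gene was called when its limma p, adjusted by Benjamini-Hochberg over all genes, was under 0.05.

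In the integrated stress response, kinases that sense amino acid shortage, endoplasmic reticulum stress, double-stranded RNA or heme deficiency phosphorylate the initiation factor eIF2. General translation falls, while the Atf4 mRNA is translated more, so that the level of that mRNA need not follow the amount of ATF4 protein. ATF4 binds DNA with partners of the C/EBP family at a composite C/EBP-ATF element, and its targets make, import and conserve amino acids and charge tRNAs with them.

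The composite element is shown for Chac1 and Slc7a11, which were called, and for Asns and Atf3, well-studied ATF4 targets. Promoter windows from RefSeq (GRCm38.p6, 250 bases before to 50 after the start site) were found for 28 of the 34 members. The windows were searched on both strands for the core TGATGNAA, which reads TTNCATCA on the other strand. It lay in the windows of 11 members, or 39.3%, against 4.51% of all 27025 genes with a window and 3.97% of all windows. These members are Asns, Atf3, Chac1, Gars, Iars, Nupr1, Slc7a11, Tars, Trib3, Vldlr and Yars. The ATF site TGACG, on either strand (CGTCA on the other), lay in the windows of 14 members, or 50.0%, against 23.0% of genes and 20.8% of windows. No TGACG copy can lie inside a core copy, though the ends of copies may overlap. A match of letters is a description and not evidence of binding. In the stretches printed here, 5′ to 3′ on the strand of the gene, capitals mark the core:
Asns (chr6:7693210-7693248, minus strand): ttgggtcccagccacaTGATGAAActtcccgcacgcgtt
Chac1 (chr2:119351033-119351072, plus strand): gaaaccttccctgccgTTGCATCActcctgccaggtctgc
Slc7a11, upstream copy (chr3:50443656-50443695, minus strand): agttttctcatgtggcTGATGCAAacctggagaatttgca
Slc7a11, downstream copy (chr3:50443637-50443676, minus strand): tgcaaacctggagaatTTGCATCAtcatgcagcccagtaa
Atf3 (chr1:191183420-191183459, minus strand): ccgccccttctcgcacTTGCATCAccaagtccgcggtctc
The core began 23 bases upstream of the start site in Asns, 193 in Chac1 and 110 in Atf3. In Slc7a11 the copies began 66 and 47 bases upstream and faced opposite ways.

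Ubtf itself lay lower on all 6 knockdown arrays (7.49 to 8.0) than on all 6 control arrays (8.04 to 8.68). Against Mock it fell by 0.74 with oligo 1 and by 0.79 with oligo 2 (adjusted p 0.0252 and 0.0146), while against sirEGFP the differences of -0.55 and -0.61 missed the threshold (0.107 and 0.0771). Arrays correlated at r of 0.980 to 0.994 within groups and 0.975 to 0.994 between them, over genes. Within groups, 41.5% of the variance lay along 1 axis, and oligo 1 arrays 1 and 2 and sirEGFP array 1 stood farthest out on it. Of 10 fibroblast markers, Vim, S100a4 and Fn1 were among the most highly measured genes and Lum lay near the bottom of the range. With oligo 2 against sirEGFP, Pdgfra (0.91) and Pdgfrb (1.75) were called higher, where 1.52% of all genes were. Of the 10, 8 lay above 0 and 2 below in that comparison, Thy1 being the lowest (-0.32). Of 6 epithelial and 5 endothelial markers, 0 were called against sirEGFP with either siRNA. The endothelial marker Cdh5 was higher with oligo 2 than with oligo 1 (0.96, adjusted p 0.0176). Of 6 macrophage markers, Csf1r rose with oligo 1 against sirEGFP (0.83), and Cd68, found in many cells, differed by 1.00 with oligo 2 (adjusted p 0.0648). Adgre1, Ptprc and Itgam had group means from 3.17 to 4.41, and Cd14 from 5.95 to 6.21. The mean log2 value of the 6 macrophage markers ran from 4.72 to 4.93 in Mock, 4.68 to 4.84 under sirEGFP, 4.89 to 5.0 under oligo 1 and 4.75 to 5.05 under oligo 2. In RNA of whole cultures, a change in the share of a kind of cell and a change per cell cannot be told apart. The part of these markers in the results below was not tested.

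Few of the stress response and ligase genes were called, and the genes called with each siRNA were not the same. With oligo 1 against sirEGFP, Ddit3 rose and Cebpg fell. With oligo 2 against sirEGFP, Nars and Chac1 fell and none rose. The counts were 1 higher and 1 lower of 34 for oligo 1, where 1.04% of all genes were called higher and 1.43% lower. For oligo 2 they were 0 higher and 2 lower, where 1.52% of all genes were called higher and 0.742% lower. At an unadjusted limma p under 0.05, 3 members lay higher and 5 lower with oligo 1, beside 7.41% and 5.94% of all genes. With oligo 2 these were 2 higher and 6 lower, beside 7.49% and 5.38% of all genes. The median change of the members was -0.01 with oligo 1 and -0.15 with oligo 2, while the median of all genes was 0.02 and -0.01. With the mean of both siRNAs against sirEGFP, Ddit3 rose and Nars fell, against 1.21% of genes called higher and 0.722% lower. Ddit3 differed by 0.91 with oligo 1 and 0.24 with oligo 2, and Nars by -0.15 and -0.99. For the mean, 2 members lay higher and 8 lower at an unadjusted limma p under 0.05, beside 7.76% and 5.48% of all genes. The comparisons with sirEGFP share its 3 arrays.

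**Figure D1:**
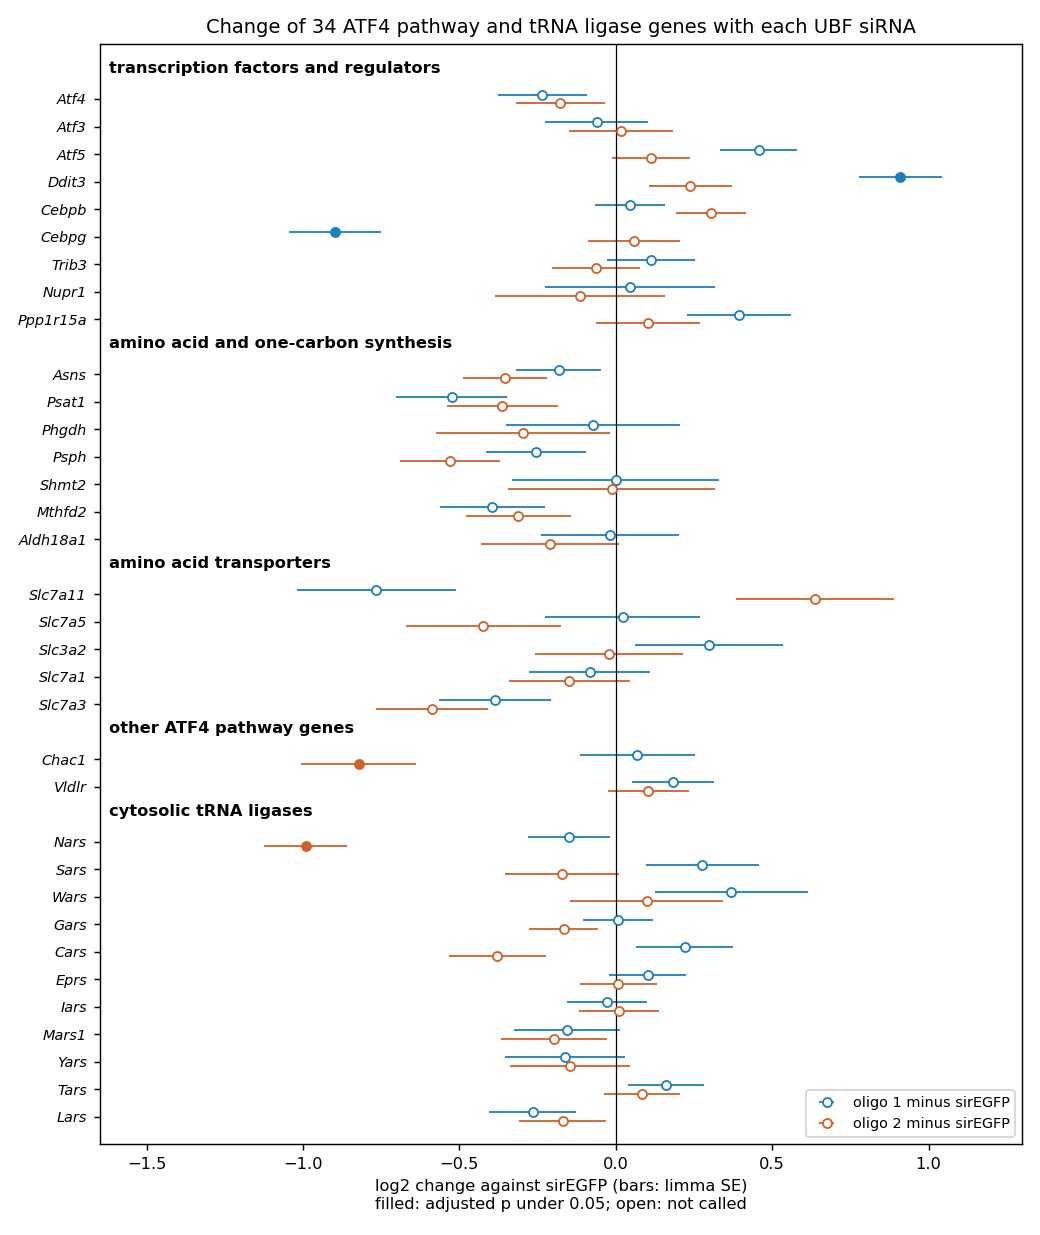
Log2 change (x axis) of each of the 34 genes against sirEGFP, with oligo 1 in blue and oligo 2 in orange, ordered by role; bars are limma's SE and filled points were called. Filled points are Ddit3 (0.91) and Cebpg (-0.90) with oligo 1, and Nars (-0.99) and Chac1 (-0.82) with oligo 2.

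Against Mock the counts were 0 higher and 1 lower with oligo 1 (Cebpg), where 1.35% of genes were called higher and 1.4% lower. At an unadjusted limma p under 0.05, 4 members lay higher and 7 lower, beside 7.93% and 5.27% of all genes. With oligo 2 against Mock, Slc7a11 rose, and Psph, Slc7a3 and Nars fell, where 2.93% of genes were called higher and 1.32% lower. There, 2 members lay higher and 8 lower at an unadjusted p under 0.05, beside 9.5% and 5.68% of all genes. The control siRNA against Mock gave 0 calls among the members and 0.0% of genes called in each direction. At an unadjusted limma p under 0.05, 2 members lay higher and 1 lower in that comparison, beside 3.84% and 2.42% of all genes, and the lowest adjusted p of a member was 0.668. No member had all 6 knockdown arrays above, or all 6 below, all 6 control arrays, although 1.43% of all genes lay above and 0.692% below in that way.

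Among the 9 transcription factors and regulators, Ddit3 and Cebpg were called, in opposite directions with oligo 1 against sirEGFP. Ddit3 encodes CHOP, a C/EBP-family factor that ATF4 induces and that promotes cell death under lasting stress. Its log2 values were 8.50, 8.07 and 7.92 in Mock, 7.71, 7.70 and 7.64 under sirEGFP, 8.57, 8.60 and 8.61 under oligo 1 and 7.95, 7.88 and 7.93 under oligo 2. The oligo 1 arrays lay above every other array, and the oligo 2 arrays lay above those of sirEGFP and overlapped Mock. Ddit3 rose by 0.91 ± 0.13 (SE) with oligo 1 against sirEGFP, 1.88-fold (adjusted p 0.00273). With oligo 2 the difference was 0.24 ± 0.13 (0.507). Ddit3 was lower with sirEGFP than in Mock by 0.48, which did not pass (0.668), and against Mock the oligo 1 difference was 0.43 (0.117). The difference between the siRNAs, oligo 2 minus oligo 1, was -0.67 (0.0104). The rise of 0.57 with the mean of both siRNAs (0.0192) was lost without oligo 1 arrays 1 and 2 and sirEGFP array 1 (adjusted p 0.0540), without sirEGFP array 2 (adjusted p 0.106), without sirEGFP array 3 (0.120) and against the mean of both controls (0.33, adjusted p 0.0554). In the RefSeq table Ddit3 overlaps Mars1, itself a member, and Mbd6, whose oligo 1 differences against sirEGFP were -0.16 and 0.19 and were not called.

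Cebpg encodes C/EBPγ, which pairs with ATF4 on the promoters of its amino acid genes. On the log2 scale it read 8.93, 8.96 and 9.14 in Mock, 9.01, 9.24 and 9.29 under sirEGFP, 8.06, 8.63 and 8.15 under oligo 1 and 9.14, 9.32 and 9.27 under oligo 2. The oligo 1 arrays lay below every other array, and the oligo 2 arrays overlapped both controls. Cebpg fell by 0.90 ± 0.15 with oligo 1 against sirEGFP, to 0.536-fold (adjusted p 0.00474), and by 0.73 against Mock (0.0141). The fall against Mock was lost without Mock array 3 (0.0668), oligo 1 array 1 (0.0547) or oligo 1 array 3 (0.0788). With oligo 2 the difference against sirEGFP was 0.06 ± 0.15 (0.930), and oligo 2 minus oligo 1 was 0.96 (0.00201). In the RefSeq table Cebpg overlaps the predicted gene Gm45095.

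The mRNA of Atf4 itself was not called in any comparison. The log2 values of Atf4 were 8.82, 9.17 and 8.89 in Mock, 8.81, 8.79 and 8.55 under sirEGFP, 8.75, 8.25 and 8.45 under oligo 1 and 8.63, 8.49 and 8.50 under oligo 2. All 6 knockdown arrays lay below the 3 Mock arrays, as did the 3 sirEGFP arrays, and the siRNA groups overlapped one another. The differences against Mock were -0.47 ± 0.14 with oligo 1 (0.105), -0.42 ± 0.14 with oligo 2 (0.132) and -0.24 ± 0.14 with sirEGFP (0.842). Quantile normalization of the arrays brought the former 2 past the threshold (0.0474 and 0.0405), and the oligo 1 difference also passed with array weights (0.00468) and without oligo 1 array 1 (-0.61, adjusted p 0.0410). Against sirEGFP the differences were -0.23 and -0.18, with 95% intervals of -0.54 to 0.07 and -0.48 to 0.13.

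None of the other regulators was called in these comparisons. Atf5, a related factor that is also controlled at translation, had log2 values of 7.65 to 7.85 with oligo 1 and 7.20 to 7.34 with sirEGFP, groups that did not overlap (0.46, adjusted p 0.0722). Ppp1r15a, the GADD34 subunit that directs a phosphatase to eIF2, differed by 0.39 with oligo 1 (0.307) and by 0.10 with oligo 2 (0.884). Cebpb differed by 0.30 with oligo 2 (0.225), its arrays at 6.49 to 6.70 against 6.15 to 6.33 with sirEGFP. The pseudokinase gene Trib3 lay between 5.59 and 6.07 in all groups, and Atf3, a repressor induced by stress, between 4.39 and 5.02. Against sirEGFP, Trib3 differed by 0.11 with oligo 1 and -0.06 with oligo 2, and Atf3 by -0.06 and 0.02. The stress protein gene Nupr1 ranged from 8.0 to 9.36 and differed by 0.04 and -0.11 from sirEGFP.

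**Figure D2:**
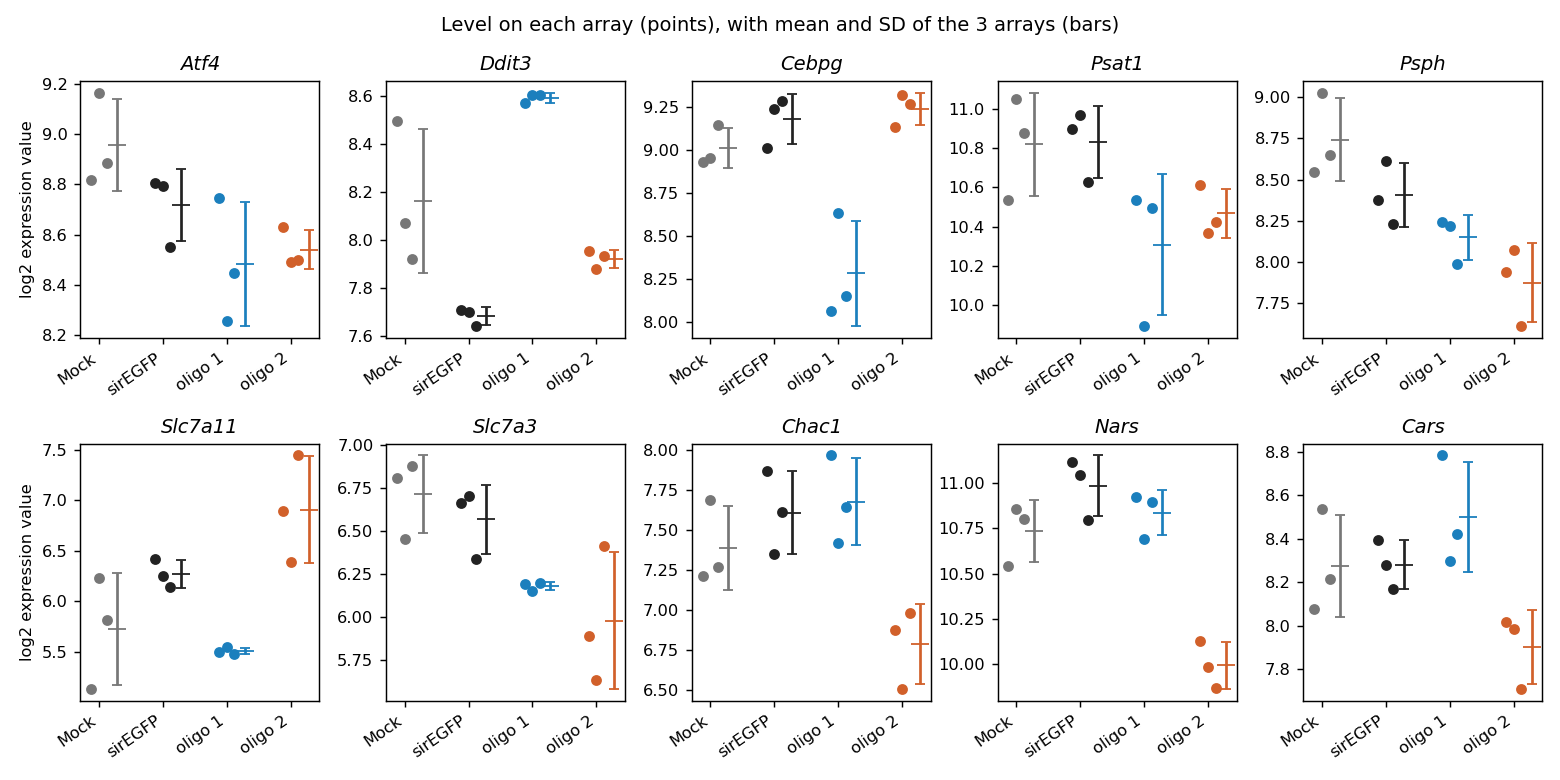
Log2 expression value (y axis, a separate scale in each panel) of 10 members on each array by group, with the mean and SD of the 3 arrays. Ddit3 with oligo 1 sits at 8.57 to 8.61 against 7.64 to 7.71 with sirEGFP, and Nars with oligo 2 at 9.87 to 10.13 against 10.80 to 11.11.

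The 7 measured genes of amino acid and one-carbon synthesis had lower means with each siRNA than with sirEGFP, and than in Mock. Over all 19938 genes, 8956 lay below 0 against sirEGFP with oligo 1 and 10304 with oligo 2. Against Mock these were 8005 and 9566. Some of the 7 did not differ from 0 by as much as their SE. Against sirEGFP, Shmt2 with oligo 1 lay nearest to 0, and Shmt2 with oligo 2 was at -0.01 ± 0.33. Aldh18a1 with oligo 1 was at -0.02 ± 0.22. The median change against sirEGFP was -0.18 with oligo 1 and -0.31 with oligo 2, and none of the 7 was called, with 2 of them lower at an unadjusted limma p under 0.05 for each siRNA, beside 5.94% (oligo 1) and 5.38% (oligo 2) of all genes. With the mean of both siRNAs, 4 of the 7 lay lower in that way, beside 5.48% of all genes, and none was called. Against Mock, sirEGFP also had lower means for 5 of the 7 (median -0.15), and for 9030 of all 19938 genes. Psph encodes phosphoserine phosphatase, the last enzyme of serine synthesis. On the log2 scale Psph read 8.55, 9.03 and 8.65 in Mock, 8.37, 8.61 and 8.23 under sirEGFP, 8.24, 8.22 and 7.99 under oligo 1 and 7.94, 8.08 and 7.61 under oligo 2. The oligo 2 arrays lay below both control groups, and those of oligo 1 lay below Mock and overlapped sirEGFP. Psph fell by 0.87 ± 0.16 with oligo 2 against Mock, to 0.548-fold (adjusted p 0.00678). Against sirEGFP the oligo 2 difference was -0.53 ± 0.16 (0.111) and the oligo 1 difference -0.26 ± 0.16 (0.564). With the array number as a block, which treats same-numbered arrays as paired, the oligo 2 difference passed (0.0211). Whether they are paired is not known. Cct6a, which overlaps Psph in the RefSeq table, differed by -0.07 with oligo 2 against Mock (0.906).

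Psat1 encodes phosphoserine aminotransferase, the step before Psph. The arrays gave Psat1 log2 values of 10.54, 11.05 and 10.88 in Mock, 10.90, 10.97 and 10.63 under sirEGFP, 10.53, 9.89 and 10.49 under oligo 1 and 10.61, 10.37 and 10.43 under oligo 2. All 6 knockdown arrays lay below the 3 sirEGFP arrays, while Mock array 1 lay among them. The difference with the mean of both siRNAs was -0.44 ± 0.15 (adjusted p 0.191). Mthfd2, a mitochondrial folate enzyme, differed by -0.40 with oligo 1 (0.307) and -0.31 with oligo 2 (0.483). Asns, the asparagine synthetase whose promoter is printed above, differed by -0.18 (0.651) and -0.36 (0.241). Phgdh, the first enzyme of serine synthesis, Shmt2, which passes a carbon unit from serine to folate, and Aldh18a1, of proline synthesis, were among the members that varied most within groups and were not called. Shmt2 ran from 7.44 to 8.98 with sirEGFP alone, and its oligo 2 difference was -0.01.

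Of the 5 amino acid transporters, Slc7a11 and Slc7a3 were called, in opposite directions with oligo 2. Slc7a11 encodes xCT, which imports cystine in exchange for glutamate and so feeds glutathione synthesis. The log2 values of Slc7a11 were 5.13, 6.23 and 5.82 in Mock, 6.42, 6.25 and 6.15 under sirEGFP, 5.50, 5.54 and 5.48 under oligo 1 and 6.89, 6.39 and 7.45 under oligo 2. The oligo 1 arrays lay below those of sirEGFP and within the range of Mock, and those of oligo 2 lay above Mock and overlapped sirEGFP. Slc7a11 rose by 1.18 ± 0.25 with oligo 2 against Mock, 2.27-fold (adjusted p 0.0163), and oligo 2 lay above oligo 1 by 1.40 (0.00617). Against sirEGFP the differences were -0.77 ± 0.25 with oligo 1 (0.156) and 0.64 ± 0.25 with oligo 2 (0.277). Without oligo 2 array 3 the latter was 0.37. The rise against Mock was lost without Mock array 1 (0.0862), oligo 2 array 1 (0.0504) or oligo 2 array 3 (0.0857). Its promoter window is the one with facing copies of the core.

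Slc7a3 encodes a transporter of cationic amino acids. For Slc7a3 the log2 values were 6.81, 6.45 and 6.88 in Mock, 6.66, 6.70 and 6.34 under sirEGFP, 6.19, 6.15 and 6.20 under oligo 1 and 5.89, 5.63 and 6.41 under oligo 2. The knockdown arrays lay below Mock, and oligo 2 array 3 lay within the range of sirEGFP. Slc7a3 fell by 0.73 ± 0.18 with oligo 2 against Mock (0.0305), a call lost without Mock array 1 (0.133), Mock array 3 (0.103), oligo 2 array 1 (0.104) or oligo 2 array 2 (0.141). Against sirEGFP the differences were -0.39 and -0.59 (0.361 and 0.115). Snx12, which overlaps Slc7a3 in the RefSeq table, differed by -0.10 with oligo 2 against Mock (0.790), and fell by 0.49 with oligo 1 against sirEGFP (0.0266).

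Slc7a5 and Slc3a2 encode the light and heavy chains of the large neutral amino acid transporter LAT1, and the Slc3a2 chain also pairs with xCT. Slc7a5 differed from sirEGFP by 0.02 with oligo 1 and -0.42 with oligo 2, and Slc3a2 by 0.30 and -0.02, none of them called. Within groups, the 3 arrays stood in the same order for Slc7a5 and Slc3a2 in 3 of the 4 groups, and for Slc7a11 and Slc3a2 in 1. The order was shared in 2 groups for Psat1 with Phgdh and with Psph, and in 1 for Shmt2 with Mthfd2. How often other pairs of genes share an order was not computed, so these counts are not read as a link between partners. Slc7a1, a further cationic transporter, differed by -0.08 and -0.15.

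Chac1, a late target of the pathway, encodes an enzyme that breaks down glutathione. Chac1 had log2 values of 7.21, 7.69 and 7.27 in Mock, 7.87, 7.35 and 7.61 under sirEGFP, 7.97, 7.42 and 7.64 under oligo 1 and 6.87, 6.50 and 6.98 under oligo 2. The oligo 2 arrays lay below every other array, and the oligo 1 arrays overlapped both controls. Chac1 fell by 0.82 ± 0.18 with oligo 2 against sirEGFP, to 0.566-fold (adjusted p 0.0305), and oligo 2 lay below oligo 1 by 0.89 (0.0132). Against Mock the oligo 2 difference was -0.60 ± 0.18 (0.0860). With oligo 1 it was 0.07 ± 0.18 against sirEGFP, with a 95% interval of -0.32 to 0.46. The call against sirEGFP was lost without sirEGFP array 1 (0.0824) or 3 (0.103), without oligo 2 array 1 (0.0776), 2 (0.133) or 3 (0.0515), and without oligo 1 array 3 (0.0508). The call between the siRNAs was lost without oligo 2 array 2 (-0.75, adjusted p 0.0746). Vldlr, a lipoprotein receptor, ran from 4.20 to 4.86 and was not called.

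Of the 11 ligases, Nars was called in comparisons with the controls. It encodes the enzyme that charges asparagine onto its tRNA. Nars had log2 values of 10.54, 10.86 and 10.80 in Mock, 11.11, 11.05 and 10.80 under sirEGFP, 10.92, 10.69 and 10.90 under oligo 1 and 10.13, 9.98 and 9.87 under oligo 2. The oligo 2 arrays lay below every other array, and those of oligo 1 overlapped both controls. Nars fell by 0.99 ± 0.13 with oligo 2 against sirEGFP, to 0.503-fold (adjusted p 0.000877), and by 0.74 against Mock, to 0.599-fold (0.00570). With oligo 1 the difference was -0.15 ± 0.13 (0.737), and oligo 2 minus oligo 1 was -0.84 (0.00217). The fall of 0.57 with the mean of both siRNAs (0.0187) was lost without sirEGFP array 1 (0.0596), sirEGFP array 2 (0.131), or oligo 1 arrays 1 and 2 and sirEGFP array 1 together (0.0894).

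Cars, which charges cysteine, was called between the siRNAs. The log2 values of Cars were 8.08, 8.54 and 8.22 in Mock, 8.39, 8.28 and 8.17 under sirEGFP, 8.78, 8.30 and 8.42 under oligo 1 and 8.02, 7.98 and 7.71 under oligo 2. The oligo 2 arrays lay below all others, Mock array 1 being the nearest. Oligo 2 minus oligo 1 was -0.60 ± 0.15 (adjusted p 0.0436), a call lost when the arrays were centred on their medians (0.0504), with a variance trend (0.0551), and in the absence of oligo 1 array 1 (0.151), oligo 1 array 3 (0.0967), oligo 2 array 1 (0.0777), array 2 (0.0922) or array 3 (0.199). It was also lost without Mock array 3 (0.0607), sirEGFP array 2 (0.0648) or sirEGFP array 3 (0.0538), which enter through the shared variance. Against sirEGFP the oligo 2 difference was -0.38 (0.291).

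The other 9 ligases were not called. With oligo 2 against sirEGFP they ranged from -0.20 (Mars1, for methionine) to 0.10 (Wars, for tryptophan), and with oligo 1 from -0.27 (Lars, for leucine) to 0.37 (Wars). Gars, for glycine, had the lowest within-group SD of the ligases, with arrays at 10.81 to 10.88 with oligo 2 and 10.95 to 11.10 with sirEGFP, and its difference of -0.17 was not called (0.610). Iars, for isoleucine, was measured by 2 probe sets, which differed from sirEGFP by -0.03 and -0.16 with oligo 1 and by 0.01 and -0.29 with oligo 2. Sars, Eprs, Yars and Tars, for serine, glutamate and proline, tyrosine and threonine, differed by at most 0.28 either way. The median over the 11 ligases was 0.01 with oligo 1 and -0.17 with oligo 2.

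Compared directly, the siRNAs differed at 6 of the 34 members. Cebpg and Slc7a11 were higher with oligo 2, where 2.3% of all genes were called higher. Ddit3, Chac1, Nars and Cars were lower with oligo 2, where 1.37% of all genes were called lower. The median over the members was -0.17, beside -0.03 over all genes. In the heat map these show as stretches of opposite colour in the oligo 1 and oligo 2 columns. Without oligo 1 arrays 1 and 2 and sirEGFP array 1, which leaves a lone oligo 1 array assumed to vary like the others, Cebpg and Nars stayed past the threshold. The calls for Ddit3 (-0.68, adjusted p 0.140), Slc7a11 (1.43, 0.0952), Chac1 (-0.86, 0.0989) and Cars (-0.52, 0.320) were lost. With the controls pooled, the mean of both siRNAs against the mean of Mock and sirEGFP gave 0 members higher and 3 lower, where 3.05% of all genes were called higher and 1.87% lower. These were Psph (-0.56, 0.00967), Slc7a3 (-0.56, 0.0183) and Nars (-0.44, 0.0126).

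**Figure D3:**
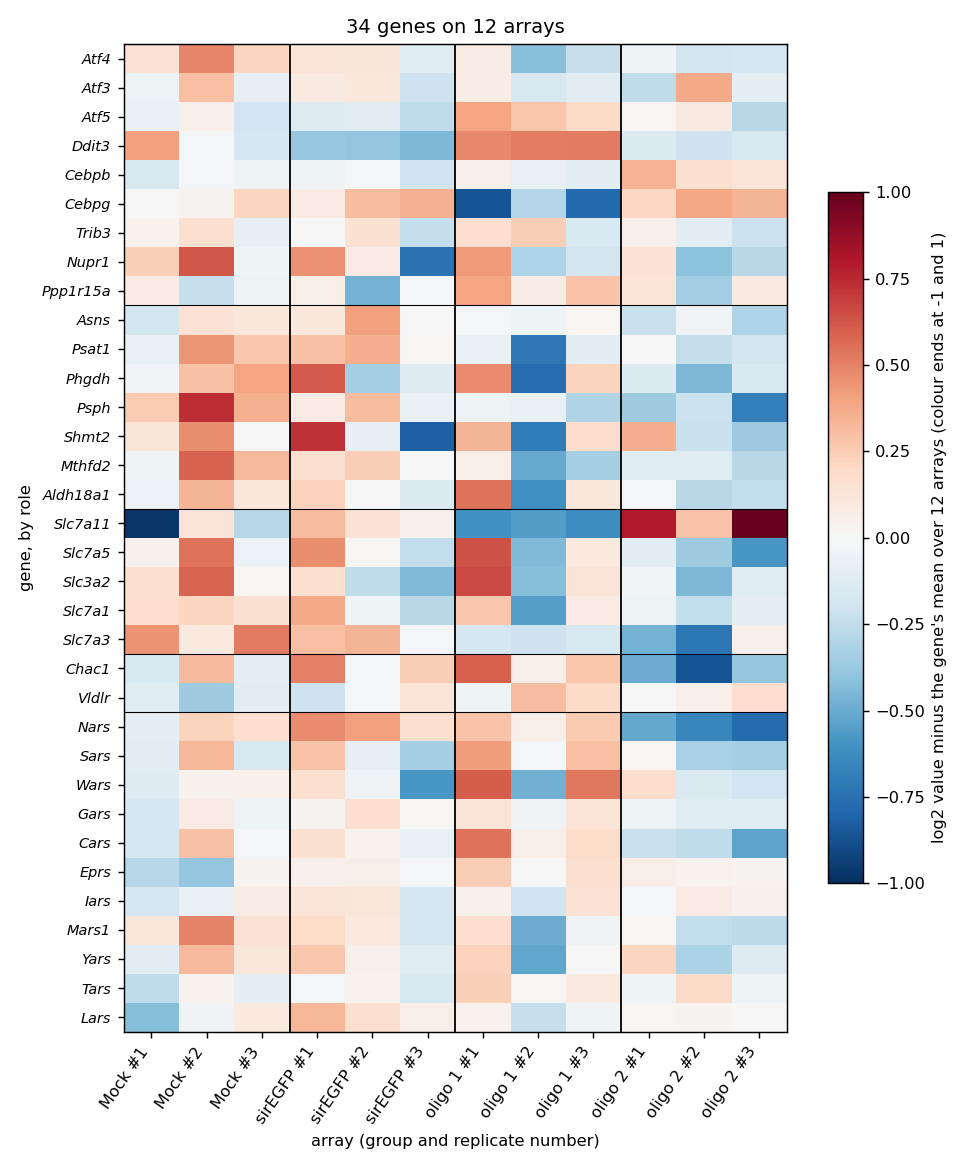
Log2 value minus the mean of the 12 arrays (colour, ends at -1 and 1) for the 34 genes in rows by role and the arrays in columns by group. Cebpg is blue and Ddit3 red on the 3 oligo 1 arrays, Nars and Chac1 are blue on the 3 oligo 2 arrays, and several rows change colour between arrays of 1 group.

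The members with the C/EBP-ATF core in their window did not move one way. Of these 11, 6 lay above 0 and 5 below with oligo 1 against sirEGFP (median 0.01), and 5 above and 6 below with oligo 2 (median -0.06). The 17 members with a window and no core had medians of -0.02 and -0.15. Against sirEGFP, Chac1 was the one called among the 11, with oligo 2, and Slc7a11 was called with oligo 2 against Mock. Ddit3 and Cebpg, both called with oligo 1 against sirEGFP, were among the 17. Nars, Cars, Slc7a3, Slc7a5, Lars and Wars had no window in the table.

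Further genes of the pathway were listed and measured in the same way. Of 17 genes of the eIF2 kinases, eIF2, its exchange factor eIF2B and its phosphatase, 0 were called against sirEGFP with either siRNA by limma, with 2 higher and 1 lower at an unadjusted p under 0.05 for oligo 1, and 1 higher and 1 lower for oligo 2. Of all genes, 7.41% lay higher and 5.94% lower in this way with oligo 1, and 7.49% and 5.38% with oligo 2. Against Mock, Impact, an inhibitor of the amino acid-sensing kinase GCN2, rose by 0.67 with oligo 1 (0.00737) and by 0.52 with oligo 2 (0.0286). Its arrays were at 9.99 to 10.14 in Mock, 10.23 to 10.40 with sirEGFP, 10.51 to 10.91 with oligo 1 and 10.46 to 10.66 with oligo 2. Eif2ak2, which encodes the double-stranded RNA kinase PKR, rose by 0.67 with oligo 1 against Mock (0.0144) and differed by 0.51 against sirEGFP (0.0678). Eif2ak2 arrays were at 8.59 to 8.89 in Mock and 8.82 to 9.05 with sirEGFP. With oligo 1 they were at 9.26 to 9.71 and with oligo 2 at 9.08 to 9.25. For both Impact and Eif2ak2 every knockdown array lay above every control array, as for 1.43% of all genes. With the controls pooled, 2 of the 17 were called higher and 0 lower, where 3.05% of all genes were called higher and 1.87% lower. Of 16 further ATF4 targets, 0 were called against sirEGFP. Slc6a9, a glycine transporter, fell by 0.60 with oligo 2 against Mock (0.0371). Its arrays were at 6.85 to 7.28 in Mock, 6.47 to 6.86 with sirEGFP and 6.33 to 6.62 with oligo 2. With pooled controls, 1 of these 16 was called higher and 0 lower, beside the same 3.05% and 1.87% of all genes. Ddit4 lay at 5.75 to 6.24 on the knockdown arrays and at 5.17 to 5.70 on the control arrays. The smallest p of that list was for Vegfa, the growth factor of blood vessels, at 8.04 to 8.85 with oligo 1, 8.08 to 8.40 with oligo 2 and 7.58 to 8.05 with sirEGFP (mean of both 0.56, adjusted p 0.117). Of 18 genes of the ATF6 and XBP1 branches of endoplasmic reticulum stress, 0 were called against sirEGFP. Dnajb9, a chaperone partner gene, rose by 0.83 with oligo 2 against Mock (0.0428). Its mean was 8.02 in Mock, 8.50 with sirEGFP, 8.55 with oligo 1 and 8.85 with oligo 2. The oligo 2 arrays (8.60 to 9.21) overlapped those of sirEGFP (8.11 to 8.91). The smallest p of the 18 was for Sel1l, of the degradation machinery (mean of both 0.35, adjusted p 0.278). At an unadjusted p under 0.05 against sirEGFP, the further ATF4 targets had 1 gene higher with oligo 1 and 2 with oligo 2, and the endoplasmic reticulum genes 0 and 1, beside 7.41% and 7.49% of all genes.

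Of 10 other cytosolic ligases and scaffold proteins of the ligase complex, 2 were called lower with oligo 2 against sirEGFP and 0 with oligo 1. Of all genes, 0.742% were called lower with oligo 2 and 1.43% with oligo 1. Hars, which charges histidine, fell by 0.63 ± 0.11 (0.00676), its arrays at 8.57 to 8.81 with oligo 2 and 9.26 to 9.34 with sirEGFP. Eef1e1, a scaffold protein of the complex, fell by 0.70 ± 0.15 (0.0184), at 9.89 to 10.04 against 10.61 to 10.75. Both also fell against Mock, Hars by 0.48 (0.0242) and Eef1e1 by 0.69 (0.0146), where 1.32% of all genes were called lower. Hars fell too with the mean of both siRNAs (by 0.40, 0.0454) and was lower with oligo 2 than with oligo 1 (by 0.45, 0.0335). In those comparisons 0.722 and 1.37% of all genes were called lower. Of 16 mitochondrial ligases, 0 were called in any comparison with sirEGFP, with 0 higher at an unadjusted limma p under 0.05 for oligo 1 and 2 for oligo 2, beside 7.41% and 7.49% of all genes. The smallest p was for Pars2, for proline (mean of both 0.34, adjusted p 0.198).

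The median within-group SD was 0.225 over the members and 0.174 over all genes, and 22 of the 34 lay above the latter. The roles differed: the median was 0.360 for the transporters and 0.248 for the synthesis genes, 0.175 for the regulators and 0.166 for the ligases. Of the members, 8 were in the top 10% of genes for this SD, with Shmt2 (0.528) and Phgdh (0.435) ahead of Nupr1, Slc7a11, Slc7a5, Wars, Slc3a2 and Aldh18a1. Along the axis that held 41.5% of the within-group variance, the array at the high end was lower than the array at the low end for 25 of 34 members in Mock, 32 with sirEGFP, 29 with oligo 1 and 24 with oligo 2. Over all genes these shares were 60.0, 43.8, 48.2 and 47.4%. Of the 11 ligases, 7 were lower on the high-end array in Mock, 11 with sirEGFP, 11 with oligo 1 and 8 with oligo 2. Of the 7 synthesis genes these were 6, 7, 7 and 4. The drop reached 1.54 for Shmt2 with sirEGFP and 1.24 for Phgdh with oligo 1. The axis was computed from all genes, these included, and each group gives 1 pair of arrays. The scores are centred within each group, so the group means on the axis are equal by construction.

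**Figure D4:**
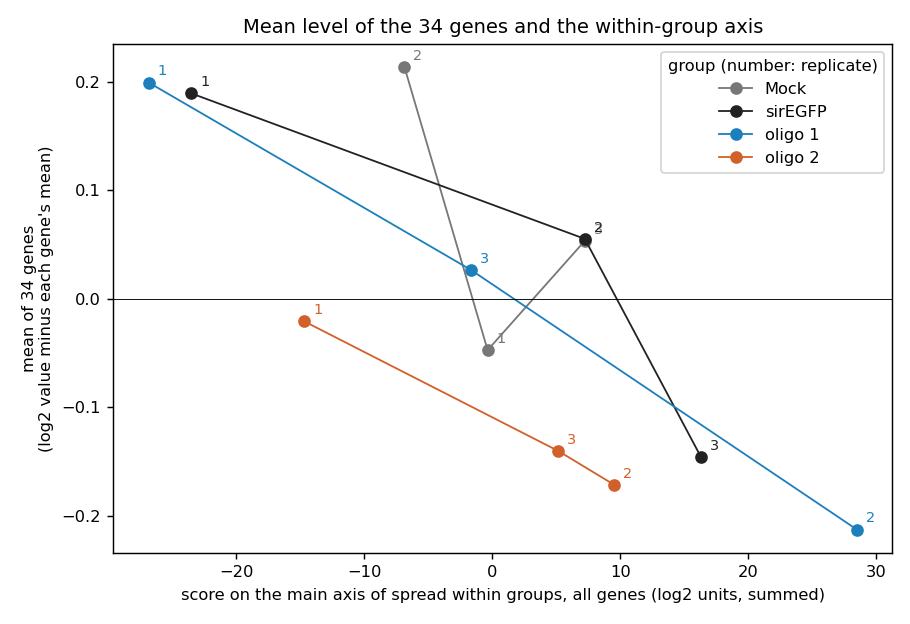
Mean of the 34 genes on each array, each gene centred on its mean over the 12 arrays (y axis, log2), against the array's score on the main axis of within-group spread (x axis); lines join the arrays of a group, numbers are replicate numbers, and the points of Mock 3 and sirEGFP 2 coincide. The mean runs from 0.20 on oligo 1 array 1 to -0.21 on oligo 1 array 2, and with oligo 2 from -0.02 to -0.17.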

How the data were processed

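The authors deposited a table of 35512 probe sets by 12 Affymetrix arrays in log2 units, a scale taken from the range of the numbers. Per the submitters' processing notes limma was used, its step and version unnamed. How probes were summarised and normalized was not given in the sources used here. Labelled cDNA was amplified from total RNA, per the labels' protocols. Array medians lay between 5.38 and 5.54, and the values were used as deposited. Signal over background could not be judged, and precision is limited by the number of arrays.

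Of the probe sets, 21789 carried 1 symbol in the platform annotation, 1621 several and 12102 none. By Entrez identifier, 21698 matched RefSeq names of GRCm38.p6 and 91 kept their symbol. Each of 19938 genes took its probe set with the highest mean; 999 genes had several. Pycr1 had no probe set with 1 symbol and Aars shared one with Exosc6, so neither is reported.

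Tests used lmFit and eBayes of limma 3.58.1 under R 4.3.3, two-sided, on all 12 arrays, with 8 residual degrees of freedom; the script was tested on simulated data. The members and lists were chosen with earlier results of these data known. Members given in full were Atf4, Ddit3, any called in 7 comparisons (oligo 1, oligo 2 and their mean against sirEGFP, oligo 1, oligo 2 and sirEGFP against Mock, and oligo 2 against oligo 1), and that of the smallest p per role in the mean comparison. From related lists, genes called in the mean comparison were named, or that of the smallest p. Others called, and Asns and Atf5, were named after their values were seen. Alternatives were median centring, quantile normalization, a filter on dim genes, the mean of probe sets, array weights, a variance trend, a replicate block, both controls, and leaving arrays out. Same-numbered arrays deviated from their group means together in some comparisons. The r was over 0.1 in each of 3 pairs for sirEGFP with oligo 2 (0.182 to 0.548) and oligo 1 with oligo 2 (0.115 to 0.388). Elsewhere not every pair passed, and sirEGFP with oligo 1 had 2 of 3 over 0.1 (-0.0805 to 0.551). The cut was chosen and each comparison has 3 pairs, so it cannot settle which groups were paired. Numbers that pair sirEGFP and oligo 1 each with oligo 2 would also pair them with each other. Whether the numbers mark shared cultures is not known. The main fit had no block, and its p-values take no account of any pairing.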

Additional observations from a re-analysis of the deposited data

Results flagged for a closer look

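By limma's test, the siRNAs against UBF differed from each other at 6 of the 34 members (adjusted p under 0.05 over all genes). In that comparison 2.3% of all genes were called higher with oligo 2 and 1.37% lower. Of the 6, Cebpg and Nars kept these calls under every alternative run. Oligo 2 minus oligo 1 was 1.40 for Slc7a11, 0.96 for Cebpg, -0.89 for Chac1, -0.84 for Nars, -0.67 for Ddit3 and -0.60 for Cars. Ubtf itself differed by -0.05 between the siRNAs (0.942).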

How the results depend on the processing

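Of 17 called differences of the members given in full, 17 kept their direction under every alternative run and 7 stayed past the threshold throughout: Ddit3 and Cebpg with oligo 1 against sirEGFP, Cebpg between the siRNAs, Psph with oligo 2 against Mock, and Nars with oligo 2 against sirEGFP, Mock and oligo 1. The members called, against 2 (oligo 1 minus sirEGFP), 2 (oligo 2 minus sirEGFP), 2 (mean of both minus sirEGFP), 1 (oligo 1 minus Mock), 4 (oligo 2 minus Mock) and 6 (oligo 2 minus oligo 1), moved as follows. Array weights, which gave oligo 1 array 3 a weight of 8.92, called 10 for oligo 1 and 5 for the mean against sirEGFP, 9 for oligo 1 against Mock and 11 between the siRNAs, where 19.1, 9.78, 13.5 and 15.9% of all genes were called. Median centring and quantile normalization each called 2 for oligo 1 against Mock. Without oligo 1 arrays 1 and 2 and sirEGFP array 1, there was 1 for the mean against sirEGFP and 2 between the siRNAs. Leaving out each array in turn gave 1 to 2 for oligo 2 and 0 to 3 for the mean against sirEGFP (0 without sirEGFP array 2), 0 to 2 for oligo 1 against Mock (0 without Mock array 3 or oligo 1 array 3), 2 to 4 for oligo 2 against Mock (2 without Mock array 1 or oligo 2 array 1), and 4 to 6 between the siRNAs. For centring, quantile normalization and the arrays left out, the share of all genes called is not given here. Those counts therefore cannot be read as moves of the members alone. The cause of these moves was not tested. With the array number as a replicate block, 2 were called for oligo 1 against Mock (4.2% of all genes) and 3 for each comparison with sirEGFP (3.88 to 4.4%). Psph then passed with oligo 2 (0.0211) and the mean (0.0485) against sirEGFP, and with oligo 1 against Mock (0.0106). Whether the arrays are paired in these comparisons is not known. Of the 12 arrays, 9 correlated best with an array of their own number. For oligo 2 against sirEGFP and against oligo 1, the block changed no call of a member beside that of Psph against sirEGFP. Signal over background is unknown, which limits what the dimmest members, such as Atf3 and Vldlr, can show.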
